A study of Mus musculus with 3 samples.

Results

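Interferon-induced effector genes and the genes of the interferon receptors were examined in dendritic cells grown from mouse bone marrow (BMDC). The members were a list of 52 genes, 4 of them receptor chains and 48 of them genes that interferon induces. A gene was measured where a probe set of the array names that gene alone, and where several do, the probe set with the highest mean was taken. By this rule 44 of the 52 were measured, among 19938 genes in all. Isg15, Ifi47, Irgm2, Igtp, Gbp2, Gbp6 and Oas1g are named only by probe sets that also name another gene, and Ifi44 by none, so these 8 have no value here.

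Marrow cells of the inbred mouse strain C57BL/6J were seeded at 2000000 per well. They were then cultured for 9 days in 20 ng/ml of murine GM-CSF together with 20 ng/ml of murine IL-4, cytokines that drive marrow precursors towards dendritic cells. All 3 samples form 1 group with 1 array each, and the labels name no interferon, microbial product or other stimulus and no untreated comparison. The labels do not say if different mice or wells gave the 3 samples, so the spread between arrays may be technical. In bulk RNA, fewer cells of a type and less RNA per cell cannot be told apart.

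Interferons are cytokines that cells release when they sense viruses or other microbes. Type I interferons bind a receptor of Ifnar1 and Ifnar2, and interferon gamma, the type II interferon made mainly by T and NK cells, binds one of Ifngr1 and Ifngr2. Kinases of the JAK family then activate STAT proteins, which bind the ISRE (with Irf9) or the GAS element near target genes. The products of these targets block viral entry, degrade viral RNA, attack the vacuoles of intracellular microbes and tune the response itself. Dendritic cells both make type I interferon and respond to it.

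Values are deposited log2 expression after RMA, a method that puts arrays on a common scale and summarizes the probes of each probe set. A gene was counted as above background where it exceeded, in each array, the 95th percentile of that array's 1210 probe sets for olfactory and vomeronasal receptors. These limits were 5.54, 5.54 and 5.55 in replicates 1, 2 and 3. Levels of different probe sets are not amounts of transcript and are not ranked against each other. With 1 group and no contrast, no test was made. Precision is limited by there being only 3 arrays.

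The dendritic cell label was checked against 8 markers, of which 7 were above background, against 60.5% of all genes. Itgax, the CD11c integrin, had 11.91, 11.92 and 11.91, whereas Flt3, the receptor of a dendritic cell growth factor, had 5.47, 5.47 and 5.24 and lay below the limit. Macrophage and monocyte markers were above it in 7 of 7 cases, with the receptor gene Csf1r at 11.03, 10.94 and 10.77, so these markers do not set the cells apart from macrophages. Markers of other cells differed between arrays, in replicate 3 for some lists and in replicate 1 for others. All 6 measured T cell markers were lowest in replicate 3, against 37.8% of all genes above background that differed, with Cd3e, a chain of the T cell receptor complex, at 9.09, 8.79 and 8.15 in replicates 1, 2 and 3. Of the 8 NK markers 5 were above background, against 60.5% of all genes, and all 5 were lowest in replicate 3. Receptor genes of that list were mixed. Klrb1c had 6.51, 6.45 and 5.94 and lay above the limit. The 3 NK markers below it, among them Ncr1 (4.23) and Klrd1 (4.89), had the same value in each array. All 6 mast cell and basophil markers were also lowest in replicate 3, against 34.2% of all genes that differed. Of 6 stroma markers 5 were highest in replicate 1, against 27.4% of all genes that differed, with the matrix genes Dcn at 8.12, 5.36 and 5.41 and Bgn at 8.19, 5.33 and 5.31. The neutrophil list was mixed, with Lcn2, an iron-withholding protein gene, at 7.98, 6.69 and 5.12.

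Most interferon members passed the background limit. Of the 44 measured members, 41 (93.2%) were above background, against 60.5% of all genes. Of 56 measured genes of other tissues thought silent here, 17 were above it too. A call above background, here also termed detected, therefore does not by itself show expression. At the stricter 99th percentile 39 members were still above the limit, against 46.2% of all genes. The median level was 8.58 over the members and 6.12 over all genes. The 3 members below the limit were Mx2, Oas1b and Ifitm6, and Cmpk2 and Ifi27l2a passed the 95th percentile but not the 99th.

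**Figure D1:**
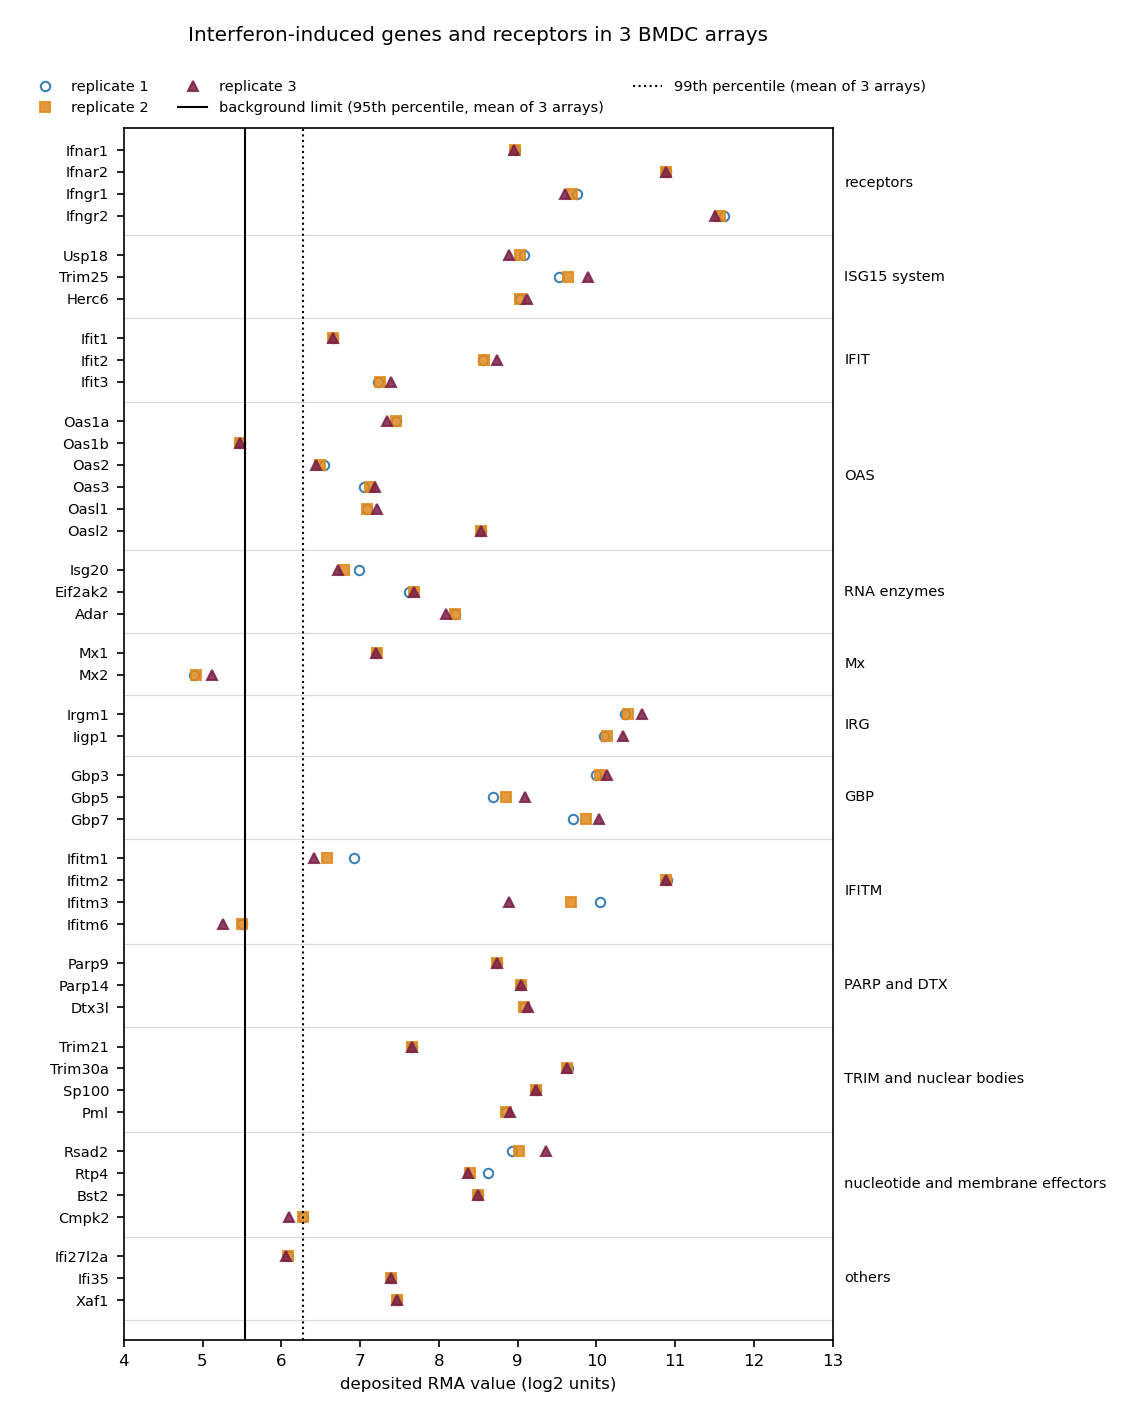
Deposited log2 values (horizontal axis) of the 44 measured members, grouped by role down the page, with 1 marker per array and the background limits as vertical lines (means of the 3 arrays). Of the members, 41 lie right of the solid line in every array and Mx2, Oas1b and Ifitm6 do not; the 3 markers of Ifitm3 are the most widely spaced.

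All 4 receptor chains were above background, against 60.5% of all genes. Ifnar1, a chain of the type I receptor, had 8.97, 8.97 and 8.96 in replicates 1, 2 and 3. Ifnar2, its partner, had 10.88 in each array. Ifngr1, the chain that binds interferon gamma, had 9.76, 9.69 and 9.60, and Ifngr2, the chain needed for signalling, had 11.62, 11.57 and 11.51. The 3 receptor genes that differed between arrays were lowest in replicate 3, against 37.8% of all genes above background that differed, with spans of 0.01 to 0.16 log2 units. Ifnar1 and Ifngr2 are direct neighbours in the genome although they serve different receptors. Of the type III receptor, Il10rb, a chain shared with the IL-10 receptor, had 10.32, 10.32 and 10.28. Ifnlr1, the chain particular to that receptor, lay below the limit at 5.01 in each array.

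Genes that carry the signal from the receptors were detected too. Of that list 7 of 7 measured genes were above background, against 60.5% of all genes, with the kinase genes Jak1 at 10.69 in each array, Jak2 at 9.86, 9.85 and 9.85 and Tyk2 at 8.26, 8.32 and 8.32. Stat2, a part of the complex that binds the ISRE, had 9.17 in each array to 2 decimals. All 6 genes that restrain signalling were above background as well, among them Socs1, an inhibitor of the JAK kinases, at 8.56 in each array.

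Interferon genes themselves were mostly below the limit, with 6 of 15 (40%) above it, against 60.5% of all genes. Ifnb1, interferon beta, had 3.58 and Ifna4 had 4.01, each the same in all arrays. Ifna5 (6.67), Ifna14 (6.04), Ifna2 (5.54, 5.54 and 5.59, just over it) and Ifnz (7.45, 7.45 and 7.48) were above the limit. Ifna14 and Ifna2 lay below the stricter 99th percentile, which was 6.28, 6.24 and 6.33 in replicates 1, 2 and 3. Interferon alpha genes are close copies of each other, so their probe sets may read each other's transcripts, and which of them was transcribed is uncertain. Ifng, interferon gamma, had 8.10, 7.59 and 7.08 in replicates 1, 2 and 3, a span of 1.02, and Ifnl2, a type III interferon, had 7.48, 7.08 and 6.82. Both were lowest in replicate 3, against 37.8% of all genes above background that differed. Of the 8 interferon genes that differed between arrays, 5 were highest and 2 lowest in replicate 3. The T cell, detected NK, and mast cell and basophil markers were lowest in that array too. The part of those cells in the Ifng values was not tested.

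Arrays differed little for most members, and members differed in which array was highest, in some families among close relatives. The 3 values were identical in 11 of the 44 members (25%), against 57.1% of all genes, and the median span was 0.11 log2 units over the members and 0 over all genes. Why so many values tie was not tested, and an SD of 0 is not read here as high precision. Averaged over the 41 members above background, the deviation from the 3-array mean was 0.005, -0.007 and 0.001 in replicates 1, 2 and 3, against 0.008, 0.002 and -0.010 over all genes above background. Of the 31 members above background that differed between arrays, 14 (45.2%) were highest in replicate 3, against 36.2% of all such genes. In the same array 13 (41.9%) were lowest, against 37.8% of all such genes. These shares shift with the scale of the arrays. Over all measured genes that differed, each array was also centred on the genes above background. This gave 18 of 33 members highest and 13 lowest in replicate 3, in place of 15 and 14. For all genes it gave 53.5% highest and 30.8% lowest, in place of 36.0% and 34.2%. After centring, the members' share highest in replicate 3 was thus close to that of all genes.

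The members highest in replicate 3 included all measured GTPases of the GBP and IRG families. Guanylate-binding proteins (GBP) and immunity-related GTPases (IRG) assemble on vacuoles and membranes of intracellular microbes, and interferon gamma induces them strongly in mouse cells. Gbp5, which also promotes inflammasome activation, had 8.68, 8.86 and 9.09 in replicates 1, 2 and 3 (SD 0.20, n = 3). Gbp7 had 9.70, 9.87 and 10.04 (SD 0.17), and Gbp3 had 9.99, 10.04 and 10.14 (SD 0.08). Replicate 3 was the highest array and replicate 1 the lowest for each of the 3 genes, with spans of 0.15 to 0.41 log2 units. Of all genes above background that differed, 36.2% were highest in replicate 3 and 24.5% lowest in replicate 1. After centring, 53.5% of all measured genes that differed were highest in replicate 3.

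The IRG genes had the same order of arrays. Irgm1, a regulator of the other IRG proteins, had 10.37, 10.40 and 10.58 (SD 0.12), and Iigp1, an effector that acts on the vacuole membrane, had 10.10, 10.14 and 10.35 (SD 0.13). The 3 GBP genes deviated from their own means by -0.14, -0.01 and 0.16 log2 units on average, a range of 0.30 or 1.23-fold. Over both IRG genes it was -0.09, -0.05 and 0.14, a range of 0.23 or 1.17-fold. After centring, the deviations in replicate 3 were 0.16 for GBP and 0.15 for IRG genes. GBP genes lie in clusters of close copies, so probe sets of neighbours may share signal. In RefSeq's gene order Gbp5, Gbp7 and Gbp3 are direct neighbours among protein-coding genes, so the 3 share a locus.

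Without replicate 3, the difference of replicate 2 over replicate 1 was 0.13 for the GBP genes and 0.03 for the IRG genes, positive in 3 of 3 and 2 of 2 genes. Over all genes above background the mean deviation was 0.008 in replicate 1 and 0.002 in replicate 2. Ifng had its lowest value in replicate 3. These families thus had their highest value in the array where Ifng, the T cell markers and the detected NK markers had theirs lowest. Mean levels of the mast cell and basophil, macrophage and monocyte, and neutrophil markers and of all genes were also lowest there. The match therefore does not set Ifng or the T and NK lists apart. Whether the cells present in each culture have a part in these values was not tested.

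**Figure D2:**
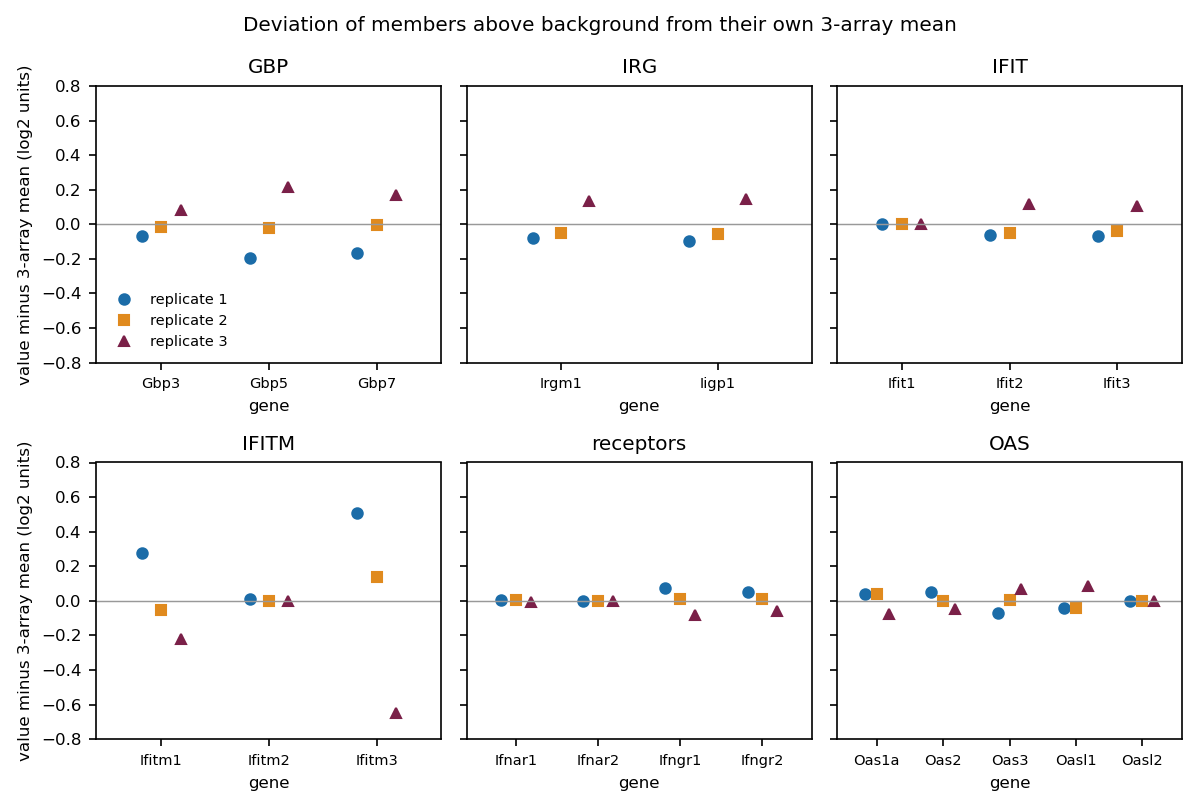
Value minus the gene's own 3-array mean in log2 units (vertical axis) for members above background in 6 families, by gene (horizontal axis) and array (marker). The 5 GBP and IRG genes have replicate 3 on top, while Ifitm1, Ifitm3 and the receptor genes that differ have it at the bottom.

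IFIT proteins bind foreign RNA ends and block translation. Ifit2 had 8.56, 8.57 and 8.74 and Ifit3 had 7.23, 7.25 and 7.40, both highest in replicate 3, and these genes are direct neighbours. Ifit1, which recognizes RNA caps that lack methyl groups, had 6.65 in each array. A close copy of Ifit3 exists in the mouse, so its probe set may read more than the named gene.

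Rsad2 (viperin), which makes a nucleotide analogue that ends viral RNA chains, had 8.93, 9.02 and 9.37 (SD 0.23, n = 3), with replicate 3 highest and a span of 0.44 or 1.35-fold. Its direct neighbour Cmpk2, a mitochondrial nucleotide kinase, had 6.27, 6.27 and 6.10, with replicate 3 lowest. The 2 neighbours therefore differed in the order of the arrays. Cmpk2 passed the stricter 99th percentile in only 1 array, so its order of arrays is uncertain. Bst2 (tetherin), which holds budding virus at the cell surface and also marks plasmacytoid dendritic cells, had 8.50 in each array. Of 7 plasmacytoid markers, Bst2 among them, 4 were above background (57.1%), against 60.5% of all genes. Siglech (5.36) and Ccr9 (5.20) lay below the limit with the same value in each array. Tcf4, of the same list, lay above it at 8.26, 8.29 and 8.34. Rtp4, a chaperone of membrane receptors, had 8.62, 8.40 and 8.38.

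The ISG15 system attaches a ubiquitin-like protein to other proteins. Isg15 itself was not measured. Usp18, which removes ISG15 and also restrains the type I receptor, had 9.08, 9.03 and 8.89, with replicate 3 lowest. Trim25, a ubiquitin ligase that activates the RNA sensor RIG-I, had 9.53, 9.64 and 9.90 (SD 0.19), with replicate 3 highest. Herc6, the ligase that attaches ISG15 in the mouse, had 9.03, 9.03 and 9.12. All 5 measured genes of ISG15 conjugation were above background, against 60.5% of all genes, including the activating enzyme gene Uba7 at 7.39 in each array and the conjugating enzyme gene Ube2l6 at 8.62, 8.56 and 8.32.

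OAS enzymes sense double-stranded RNA and make oligoadenylates that switch on RNase L. Oas1a had 7.46, 7.46 and 7.34, Oas2 had 6.54, 6.49 and 6.45, and Oas3 had 7.05, 7.13 and 7.19. Oasl1 had 7.09, 7.09 and 7.21, and its neighbour Oasl2 had 8.53 in each array. Directions differed within the family, with Oas3 and Oasl1 highest and Oas1a and Oas2 lowest in replicate 3, and the mean deviation stayed within 0.01 log2 units in each array. Oas1b, which protects mice from flaviviruses and carries a premature stop codon in most laboratory strains, lay below the limit at 5.48 in each array. The Oas1 genes are close copies, so their probe sets are uncertain.

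Other RNA enzymes were above background in all 3 cases, against 60.5% of all genes. Eif2ak2 (PKR), a kinase that stops translation on double-stranded RNA, had 7.62, 7.68 and 7.68. Adar, which edits double-stranded RNA, had 8.21, 8.21 and 8.10. Isg20, an exonuclease, had 6.99, 6.79 and 6.72, with replicate 1 highest. Cytosolic sensors were above background in 7 of 8 cases, against the same 60.5%, with the RNA sensors Ddx58 (RIG-I) at 8.48, 8.41 and 8.40 and Ifih1 (MDA5) at 8.49 in each array. The DNA sensor Cgas lay below the limit at 5.16 in each array.

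Mx proteins are GTPases that block virus replication, and most laboratory strains carry defective alleles of both Mx genes. Mx1 had 7.20, 7.22 and 7.20 and lay above the limit. Mx2 had 4.89, 4.92 and 5.12 and lay below it in every array. The array data do not show whether a transcript encodes a working protein.

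The IFITM family contained both members that spanned more than 0.5 log2 units, a span reached by 2.18% of all genes. IFITM proteins sit in endosomal membranes and hinder viral entry. Ifitm3 had 10.05, 9.68 and 8.89 in replicates 1, 2 and 3 (SD 0.59, n = 3), with replicate 3 lowest and a span of 1.16 or 2.23-fold. Ifitm1 had 6.92, 6.59 and 6.42 (SD 0.26, n = 3), also lowest in replicate 3, with a span of 0.50. A weaker probe set of Ifitm1 had 6.06, 5.95 and 5.83, the same order of arrays with a smaller span. Without replicate 3 neither gene spanned more than 0.5, a count of 0, and without replicate 1 the count was 1.

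Ifitm2, in the same gene cluster, had 10.90, 10.89 and 10.89, and its weaker probe sets had 10.34, 10.25 and 10.25 and 9.71 in each array. Ifitm6 had 5.51, 5.51 and 5.26, lowest in replicate 3 but below the limit in every array. Over the 3 detected IFITM genes the mean deviation was 0.27, 0.03 and -0.29, against 0.31, 0.07 and -0.38 over 6 T cell markers and 0.36, 0.13 and -0.49 over 5 detected NK markers. Mean levels, unlike these deviations, were taken over all measured genes of a list, also those below the limit. The mean level of the T cell markers was 7.59, 7.34 and 6.89 in replicates 1, 2 and 3, and that of the 6 mast cell and basophil markers was 6.56, 6.68 and 5.43. It was 6.81, 5.42 and 5.51 over 6 stroma markers, 6.10, 5.99 and 5.35 over 9 neutrophil markers and 9.47, 9.41 and 9.24 over 7 macrophage and monocyte markers. Only 2 of the stroma, 4 of the neutrophil and 3 of the mast cell and basophil markers were above the limit in every array. Each of these lists had its lowest or highest mean in the same array as Ifitm3, or both. So did the B cell, plasmacytoid and dendritic cell lists and the mean of all genes (6.385, 6.377 and 6.373). The match therefore does not set a list apart. The part of other cells in the Ifitm3 values was not tested.

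**Figure D3:**
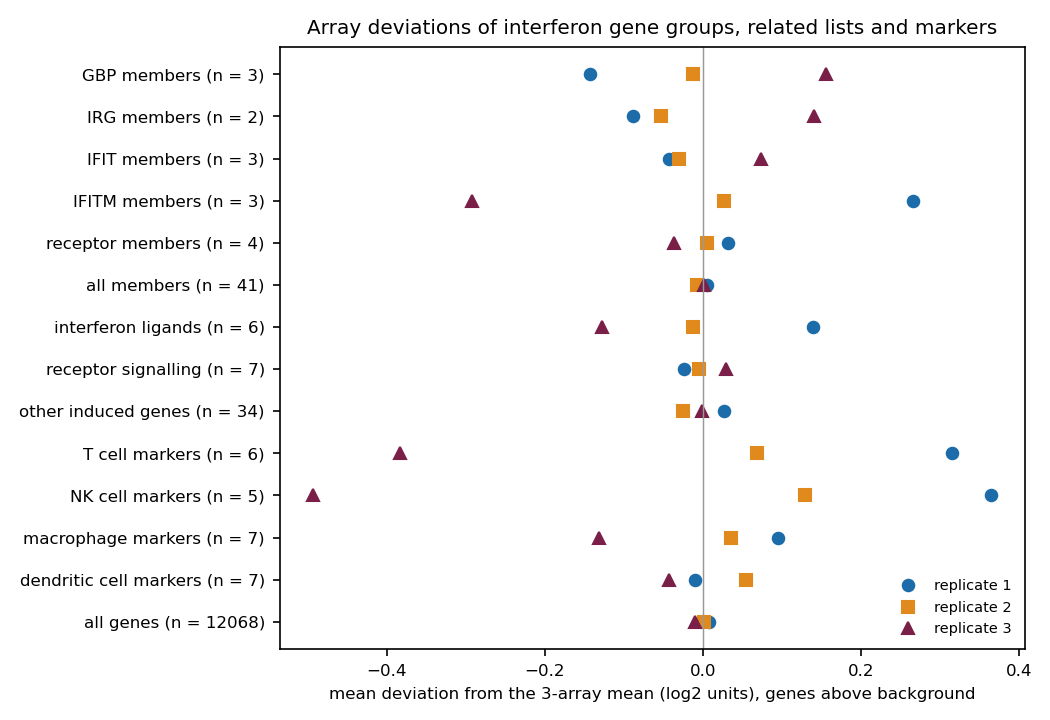
Mean deviation from the 3-array mean in log2 units (horizontal axis), over genes above background, for member families, related lists and marker lists (rows, with the number of genes), 1 marker per array. GBP, IRG and IFIT genes lie right of 0 in replicate 3, IFITM genes and the T and NK markers left of it, and the mean of all 41 members lies near 0 in each array.

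Genes of ADP-ribosylation and of nuclear bodies were nearly the same in all arrays. Parp9, Dtx3l and Parp14 are direct neighbours, and the proteins of Parp9 and Dtx3l form a complex that modifies histones and viral proteins. Parp9 had 8.74 and Parp14 had 9.04 in each array, and Dtx3l had 9.09, 9.08 and 9.13. Sp100, a scaffold of nuclear bodies, had 9.23 in each array, and Pml, their core protein, had 8.85, 8.85 and 8.90. The antibody receptor gene Trim21 had 7.66 in each array, and Trim30a, a regulator of innate signalling in the mouse, had 9.64, 9.62 and 9.62. Of the remaining members, Ifi35, a partner of Nmi, had 7.40 and Xaf1, which binds the apoptosis inhibitor XIAP, had 7.47 in each array. Ifi27l2a had 6.08, 6.08 and 6.05.

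Interferon-induced genes outside the member list were detected at a similar rate. Of 38 measured genes of that list, 34 (89.5%) were above background, against 60.5% of all genes. Gbp4, another guanylate-binding protein gene, had 9.78, 9.92 and 10.19, with replicate 3 highest as in the GBP members. Ch25h, which makes the antiviral sterol 25-hydroxycholesterol, had 7.42, 6.84 and 6.33, and the chemokine gene Ccl12 had 6.49, 6.26 and 5.92, both lowest in replicate 3. The T cell attracting chemokine gene Cxcl10 had 5.70, 5.38 and 5.27 and passed the limit in 1 array, and Cxcl11 (4.63) and Ifi44l (4.26) lay below it. The mean deviation of the 34 genes was 0.03, -0.02 and -0.002.

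Promoters of the members were searched for the elements through which interferon acts. The sequences are RefSeq's for GRCm38.p6 and cover 250 bases before and 50 after the annotated start, and 41 of the 52 members had at least 1. The ISRE core was read as 2 GAAA blocks with any 2 bases between them, on either strand, where a run of GAAA blocks can give overlapping matches. It occurred in 20 of the 41 members (48.8%), against 3.99% of all 27025 genes with a promoter and 3.44% of all promoters. The GAS element, TTCNNNGAA on either strand, occurred in 15 of the 41 (36.6%), against 9.55% of all genes and 8.3% of all promoters. The matches overlapped between motifs in Bst2 and Ifitm3. A match is a description of letters and not a bound site, and its absence from this window says nothing of the factor.

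By family, an ISRE core occurred in 4 of 4 GBP, 3 of 4 IRG, 2 of 3 IFIT, 3 of 5 OAS and 2 of 4 IFITM genes, and in 0 of 4 receptor genes. Of the detected members with a promoter, 7 of 13 that were highest in replicate 3 held it, against 2 of 9 that were lowest there. It stood in 3 of 8 with identical values and in 3 of 3 of the rest. The 9 lowest there included Ifnar1, Ifngr1 and Ifngr2, of the receptor family without a match. The GAS element occurred in 3 of 13, 5 of 9, 3 of 8 and 1 of 3 of the same groups. Ifitm3 had its ISRE matches just after the start, at positions 3 and 20 of the transcript, and Ifitm1 had none.

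The following stretches, each from before the start site and at most 60 bases long, show the ISRE core (in capitals) in genes highest in replicate 3 and, for comparison, in Ifit1 and Bst2, which were identical in the arrays, and in Oas1a, lowest in replicate 3. They lie in GRCm38.p6 at chr3:142559984-142560043 on the plus strand (Gbp3), chr3:142496754-142496813 on the plus strand (Gbp5), chr3:142530268-142530327 on the plus strand (Gbp7), chr11:48871421-48871465 on the minus strand (Irgm1) and chr19:34583358-34583417 on the plus strand (Ifit3). The others lie at chr12:26456528-26456587 on the minus strand (Rsad2), chr19:34640770-34640829 on the plus strand (Ifit1), chr8:71537558-71537617 on the minus strand (Bst2) and chr5:120907526-120907560 on the minus strand (Oas1a). Each is written 5′ to 3′ on the strand of its gene.
Gbp3: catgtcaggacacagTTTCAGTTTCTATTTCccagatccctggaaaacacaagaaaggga
Gbp5: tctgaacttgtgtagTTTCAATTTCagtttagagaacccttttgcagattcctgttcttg
Gbp7: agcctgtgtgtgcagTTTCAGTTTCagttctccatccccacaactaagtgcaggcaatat
Irgm1: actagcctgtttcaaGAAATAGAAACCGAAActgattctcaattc
Ifit3: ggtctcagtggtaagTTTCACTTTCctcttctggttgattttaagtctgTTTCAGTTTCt
Rsad2: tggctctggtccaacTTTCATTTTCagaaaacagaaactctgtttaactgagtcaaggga
Ifit1: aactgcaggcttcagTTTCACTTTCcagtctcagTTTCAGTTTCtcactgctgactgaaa
Bst2: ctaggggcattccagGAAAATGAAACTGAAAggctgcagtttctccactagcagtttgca
Oas1a: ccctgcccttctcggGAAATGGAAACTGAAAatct

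The first ISRE match began 45 bases before 1 of the 2 starts of Gbp3, 53 before the start of Gbp7 and 165 before that of Gbp5. It began 30 bases before the start in Irgm1, 20 in Oas1a, 104 in Ifit1, 156 in Ifit3, 120 in Rsad2 and 130 in Bst2. Gbp3, Irgm1, Oas1a and Bst2 each held 2 overlapping matches, and Ifit1 and Ifit3 held 2 that lie apart. Gbp5 and Gbp7 also held 2 GAS matches each. These genes were chosen because they hold the element, so its presence in each group was fixed by the choice. Over all detected members with a promoter it stood in 7 of 13 highest in replicate 3, 3 of 8 identical, 2 of 9 lowest there and 3 of 3 of the rest. A link between the element and the order of arrays was not tested.

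**Figure D4:**
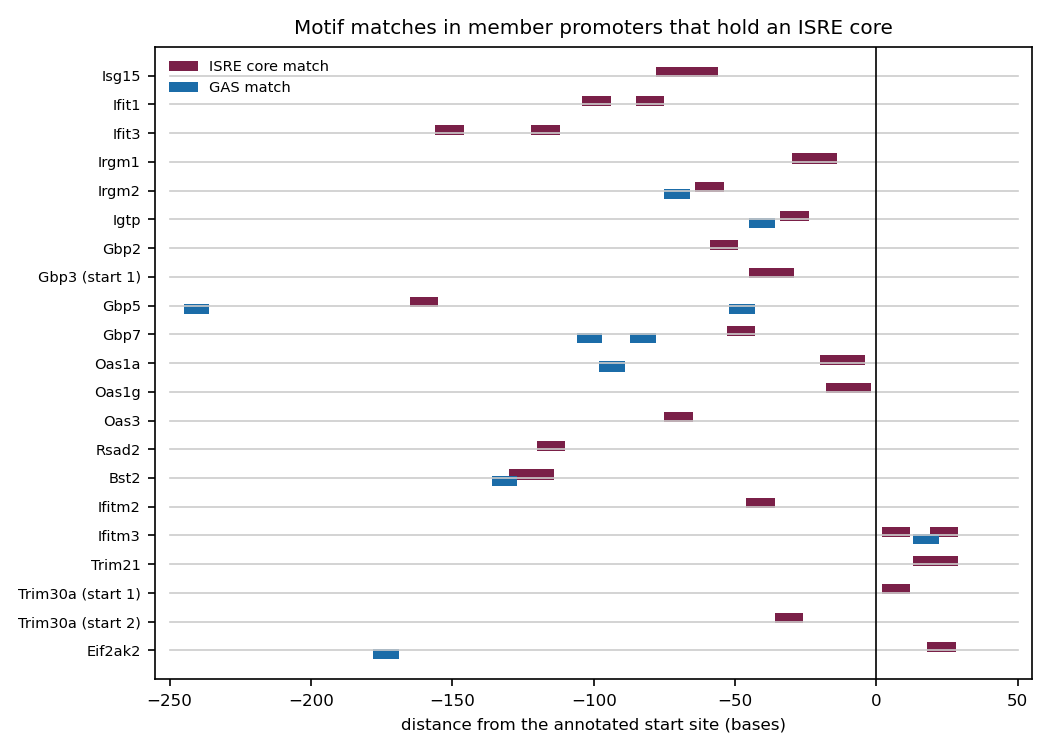
Positions of ISRE core and GAS matches (bars, to scale) in member promoters that hold an ISRE core, as distance in bases from the annotated start site (horizontal axis), 1 row per promoter and numbered where a gene has several starts. Most ISRE matches lie before the start, whereas those of Ifitm3, Trim21, Eif2ak2 and 1 of 2 starts of Trim30a lie after it.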

How the data were processed

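Total RNA (150 ng) of 3 BMDC samples was amplified, labelled with biotin and hybridised to 1 Affymetrix whole-transcript array each, per the labels' protocols. The authors deposited log2 values from RMA (submitters' processing notes); its software, version and genome build are not given in the sources used here. The log base was read from the range of the values.

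Of 35556 probe sets, 21789 name 1 gene, 1621 several and 12146 are unlisted in GEO's platform annotation, and only the first were used. Entrez identifiers of all 44 measured members were found in RefSeq (GRCm38.p6). Background limits, spans (highest minus lowest array), deviations from the 3-array mean and motif matches were computed with Python 3.11.15, pandas 2.3.3 and numpy 2.4.6, and the calculations were checked on simulated data. The members and lists were chosen with earlier results of these data known.

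Every measured member is named. Of each pathway list the text could name the first 4 measured genes, up to 4 against the list's majority and the widest spans, and of each marker list the first 4. Not every such gene is named. Alternatives covered background limits, probe set choice, span thresholds, centring and left-out arrays.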

Additional observations from a re-analysis of the deposited data

How the results depend on the processing

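The count of 41 members above background stayed between 39 and 41 under every alternative run, namely other limits, the call on the mean, other probe sets and each array left out. Of 352 calls of single members under these alternatives 4 changed, those of Cmpk2 and Ifi27l2a at the 99th percentile and at the limit set by 56 tissue genes thought silent. The count of members over the span threshold was 7 at 0.25 log2 units (7.26% of all genes), 1 at 1 unit (0.386%), 1 with the weakest probe set and 1 with the mean of probe sets, and between 0 and 2 with 1 array left out. The range of the members' mean deviation was 0.0124, with 0 for the median deviation, 0.0198 after centring on all genes above background, and 0.00397 (without replicate 2) to 0.0124 with 1 array left out. The count of members lowest in replicate 3 lay between 10 and 14; its centring, and that of the count highest there, were chosen after seeing the data. The median level lay between 8.55 and 8.60 with 1 array left out. The cause of these shifts was not tested. No paired analysis was possible because the samples form 1 group. No scanner signals were used, so signal over background of single probes is unknown.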
